A study of Oryza sativa with 12 samples.

Results

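The Aux/IAA genes of rice encode nuclear repressors of auxin signalling, and the 30 loci examined here (OsIAA1, OsIAA2 and OsIAA4 to OsIAA31) are the annotated family members taken from a list of locus identifiers, whether or not they responded to cold. They make up 30 of the 55985 genes in the deposited expression table. OsIAA3 is not among them, so ranks, sums and percentages of the family below refer to these 30 loci. Aux/IAA proteins bind auxin response factors (ARFs), the transcription factors that sit on auxin-responsive promoters, and recruit co-repressors to keep those promoters silent. When auxin is present it joins an Aux/IAA protein to a TIR1/AFB F-box receptor, and the repressor is ubiquitinated and degraded, so that the ARF is released. Many Aux/IAA genes are themselves early targets of auxin, which makes their transcripts a common readout of auxin signalling, and in anthers auxin is known to take part in filament elongation, dehiscence and pollen maturation.

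Poly(A) RNA was sequenced from anthers dissected at the post-meiotic stage from mid-panicle spikelets of 2 rice cultivars. ERY (Erythroceros Hokkaido) is labelled as tolerant to cold stress and S.AND (Sant'Andrea) as susceptible. The 4 groups were ERY COLD, ERY CONTROL, S.AND COLD and S.AND CONTROL, with 3 samples each and anthers of several plants pooled in each sample. COLD plants spent 1 night at 8 °C and CONTROL plants the same night at 24 °C, and all plants had been raised in growth chambers and moved to short days before the treatment. The authors report that some cold-treated S.AND spikelets turned whitish and held damaged anthers, and that only anthers of normal anatomy were used. The S.AND COLD samples thus hold anthers selected as undamaged. The table holds 1 value per gene and group, the authors' mean over the 3 samples in RPKM, a read count scaled by the length of the coding sequence and by the total reads of the library. No spread between samples can therefore be set beside a value, and no difference below was tested. A gene was compared where its mean reached 1 RPKM in at least one of both groups and was above 0 in both, and it was counted as different where the ratio of the means was at least 2-fold.

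Each column of means summed to 1000000 RPKM, so a value is also a share of the length-scaled expression of that group. Plain RPKM columns need not share a total, so the deposited means may have been rescaled to one, a step not described in the sources used here, and RPKM below stands for values on that scale. The 6 anther markers were present in every group with summed levels between 23832 and 30745 RPKM, most of it OsC6, a lipid transfer protein of the tapetum, at 19829 to 25952 RPKM. The sum hides CYP704B2, the only 1 of the 6 at least 2-fold different between the cultivars at either temperature. It averaged 600.0 RPKM in ERY COLD against 1951 in S.AND COLD, and 657.0 in ERY CONTROL against 3471 in S.AND CONTROL. Marker transcripts of the neighbouring pistil (DL, OsMADS13, OsMADS21) were low and summed to 23.3 RPKM in ERY COLD and 14.9 in ERY CONTROL, against 4.30 in S.AND COLD and 9.43 in S.AND CONTROL, with none at 0. Those of lemma and palea (OsMADS1, OsMADS14, OsMADS15) summed to between 74.4 and 101.7 RPKM, with none at 0. In such bulk samples fewer cells of a type and less RNA per cell cannot be told apart.

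The family was well represented in post-meiotic anthers, but very unevenly so. Of the 30 genes, 25 reached 1 RPKM in at least one group and 20 did so in every group, while 10 stayed at or above 10 RPKM in every group. OsIAA21 (LOC_Os06g22870) was the most abundant member in all 4 groups, with 480.0 RPKM in ERY COLD, 517.7 in ERY CONTROL, 571.8 in S.AND COLD and 459.8 in S.AND CONTROL. Among all genes of the table it stood at rank 189 in ERY COLD, 182 in ERY CONTROL, 138 in S.AND COLD and 202 in S.AND CONTROL. OsIAA14 (LOC_Os03g58350), OsIAA17 (LOC_Os05g14180) and OsIAA10 (LOC_Os02g57250) filled the next 3 places in every group, and with OsIAA21 they carried 72.6% of the family's summed RPKM in ERY COLD, 79.5% in ERY CONTROL, 76.1% in S.AND COLD and 76.5% in S.AND CONTROL.

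The order within these 4 genes differed between the temperatures. OsIAA14 stood second in both COLD groups, with 401.2 RPKM in ERY and 339.4 in S.AND, whereas OsIAA17 stood second in both CONTROL groups, with 278.2 RPKM in ERY and 242.9 in S.AND. In S.AND COLD, OsIAA10 (252.6 RPKM) also exceeded OsIAA17 (237.6 RPKM), although the spread of these means over samples is unknown. Lower in the family, OsIAA19 (LOC_Os05g48590) held place 5 in both COLD groups, against place 8 in ERY CONTROL and place 10 in S.AND CONTROL.

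**Figure D1:**
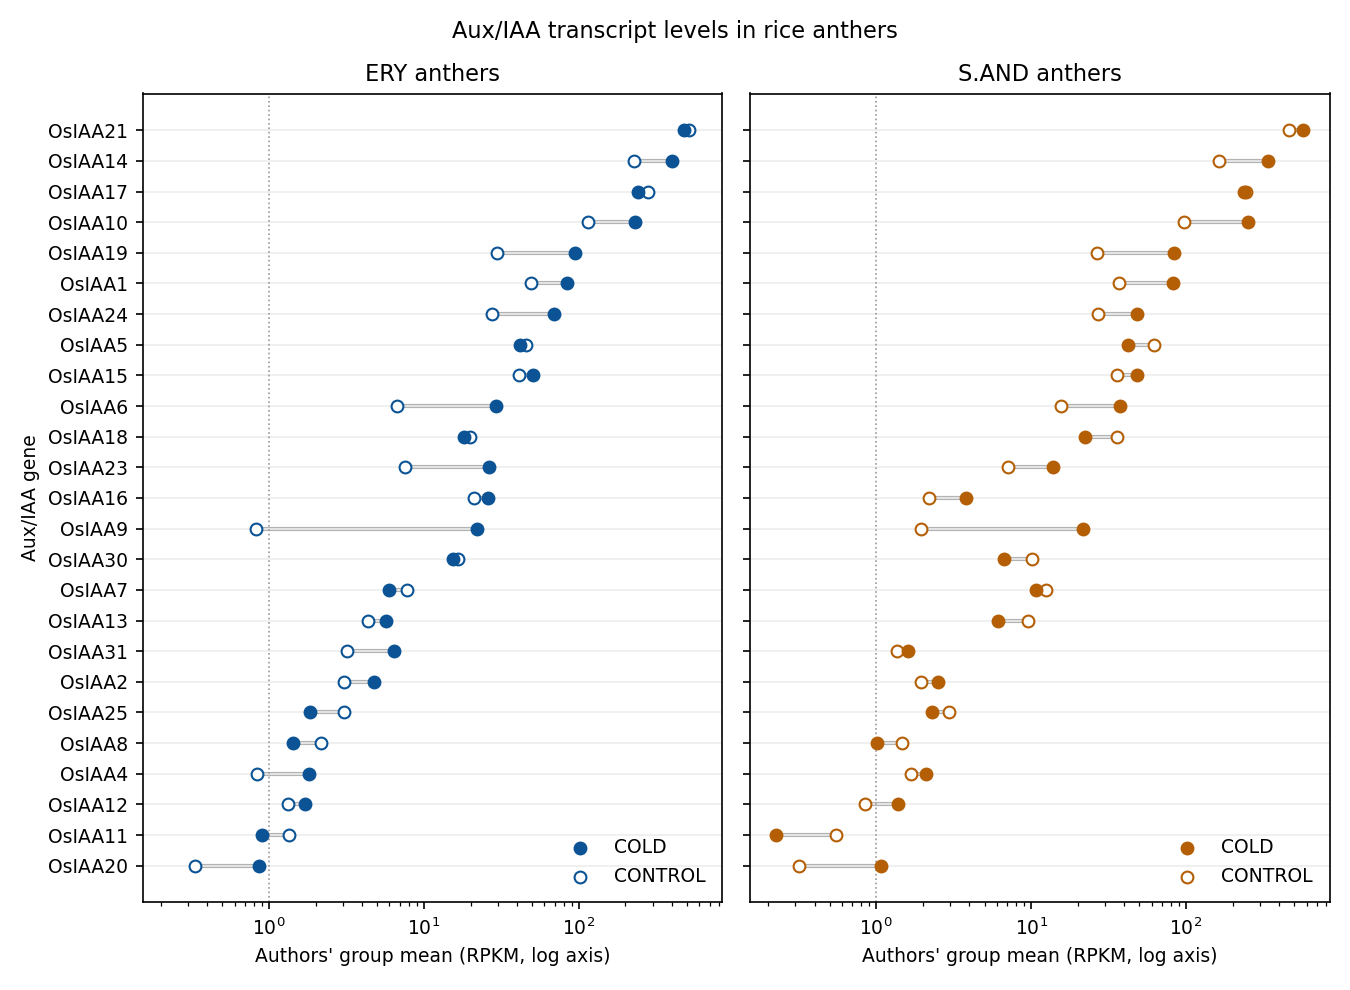
Levels of the 25 Aux/IAA genes that reached 1 RPKM in at least one group, as the authors' group means in RPKM on a log axis, for ERY (left) and S.AND (right). Filled circles are COLD and open circles CONTROL, each 1 mean of 3 samples with no error available, and the dotted line marks 1 RPKM. OsIAA9 has the widest gap in both panels, and OsIAA21, OsIAA14, OsIAA17 and OsIAA10 stay at the top; the 2 circles of OsIAA17 in S.AND overlap.

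Summed over all 30 genes, Aux/IAA transcripts were more abundant in COLD than in CONTROL anthers of both cultivars. The sum was 1861 RPKM in ERY COLD against 1430.1 in ERY CONTROL, a ratio of 1.30, and 1841 RPKM in S.AND COLD against 1259.5 in S.AND CONTROL, a ratio of 1.46. The COLD sums of ERY and S.AND thus lay within 19.9 RPKM of each other, while the CONTROL sums were 170.6 RPKM apart. Most of the difference between temperatures came from 2 genes, OsIAA14 and OsIAA10. In ERY, OsIAA14 was 174.3 RPKM higher in COLD than in CONTROL and OsIAA10 116.5 RPKM higher, which made up 40.5% and 27.1% of the net family difference. In S.AND, OsIAA14 was 175.7 RPKM higher (30.2%) and OsIAA10 155.2 RPKM higher (26.7%). OsIAA21 added 112.0 RPKM in S.AND whereas its difference in ERY, COLD minus CONTROL, was -37.8 RPKM.

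**Figure D2:**
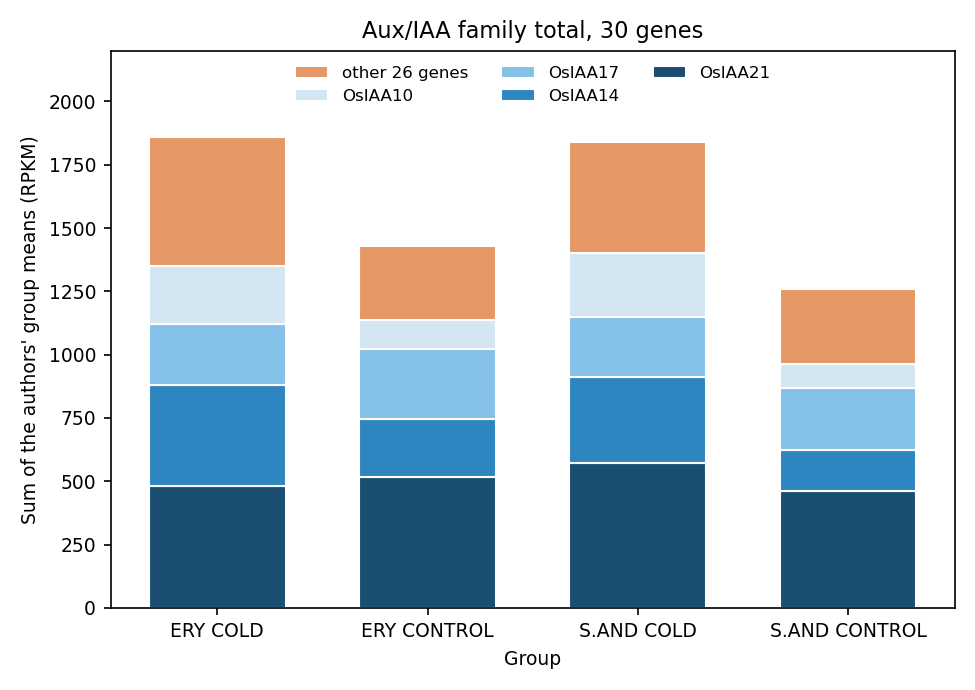
Sum of the authors' group means over the 30 Aux/IAA genes in each group, in RPKM, split into the 4 most abundant genes and the other 26. The COLD bars stand at 1861 (ERY) and 1841 (S.AND) RPKM and the CONTROL bars at 1430.1 and 1259.5; the sections for OsIAA14 and OsIAA10 and the section for the other 26 genes are taller in COLD, and that for OsIAA17 is not.

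The first question of the design was how the anther transcriptome of each cultivar differed after a cold night. In ERY, 24 of the 30 Aux/IAA genes could be compared, and 8 of them were at least 2-fold higher in COLD than in CONTROL, where 8.18% of all 23929 genes compared were. None of the 24 was at least 2-fold lower, against 6.65% of all genes. In S.AND, 24 members could also be compared, of which 7 were at least 2-fold higher, against 5.42% of all 24200 genes, and 0 were at least 2-fold lower, against 9.21%. The median log2 ratio of the members was 0.38 in ERY and 0.39 in S.AND, beside 0.03 and 0.00 over all genes compared in the same cultivars. Members that reached 1 RPKM in COLD alone had to stand higher there, and these were OsIAA4 and OsIAA9 in ERY and OsIAA12 and OsIAA20 in S.AND. Among those that reached 1 RPKM at both temperatures, 6 of 21 in ERY and 6 of 22 in S.AND were at least 2-fold higher in COLD. The share of all genes under this stricter rule was not computed, so no conclusion is drawn from these counts.

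Of the 23 members compared in both cultivars, 4 were at least 2-fold higher in COLD in both, where 3.78% of all 22639 such genes were, and these were OsIAA9, OsIAA19, OsIAA6 and OsIAA10. OsIAA9 (LOC_Os02g56120), which alters root growth and gravitropism when overexpressed, showed by far the widest gap. Its mean was 22.2 RPKM in ERY COLD against 0.825 in ERY CONTROL, a 26.8-fold ratio, and 21.5 RPKM in S.AND COLD against 1.95 in S.AND CONTROL, an 11.0-fold ratio. It held place 13 in the family in ERY COLD against place 24 in ERY CONTROL, and place 12 in S.AND COLD against place 18 in S.AND CONTROL. The larger ratio in ERY came with a lower CONTROL level, since the COLD levels of the cultivars were nearly equal. OsIAA9 was also close to the 1 RPKM minimum in CONTROL, where a small absolute error has a large effect on the ratio.

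OsIAA19 (LOC_Os05g48590) had nearly the same ratio in both cultivars and a much higher level. It averaged 93.9 RPKM in ERY COLD against 29.5 in ERY CONTROL (3.19-fold), and 84.0 RPKM in S.AND COLD against 26.8 in S.AND CONTROL (3.14-fold). OsIAA6 (LOC_Os01g53880), whose overexpression has been linked to drought tolerance, averaged 29.1 RPKM in ERY COLD against 6.73 in ERY CONTROL (4.32-fold). In S.AND it averaged 37.5 RPKM in COLD against 15.7 in CONTROL (2.39-fold), so that OsIAA6 was higher in S.AND than in ERY at both temperatures. For OsIAA10 (LOC_Os02g57250), a repressor that a protein of rice dwarf virus binds and stabilises, the means were 230.8 RPKM in ERY COLD against 114.3 in ERY CONTROL (2.02-fold), and 252.6 RPKM in S.AND COLD against 97.4 in S.AND CONTROL (2.59-fold). In ERY this ratio is just past 2-fold, and on ratios centred on the median gene its log2 value of 0.98 is just short of it.

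Another 4 of the 23 genes passed 2-fold in ERY but not in S.AND, against 4.14% of all genes compared in both cultivars. OsIAA23 (LOC_Os06g39590), needed in rice for maintenance of the root quiescent centre, averaged 26.2 RPKM in ERY COLD against 7.55 in ERY CONTROL (3.48-fold), and 13.8 RPKM in S.AND COLD against 7.08 in S.AND CONTROL (1.95-fold). OsIAA24 (LOC_Os07g08460) averaged 69.3 RPKM in ERY COLD against 27.6 in ERY CONTROL (2.51-fold), and 48.4 RPKM in S.AND COLD against 26.8 in S.AND CONTROL (1.80-fold). Both genes therefore had close CONTROL levels in the cultivars and a higher COLD level in ERY, and in S.AND both were also higher in COLD. The other two were weakly expressed. OsIAA4 (LOC_Os01g18360) averaged 1.81 RPKM in ERY COLD against 0.836 in ERY CONTROL (2.17-fold), and 2.10 RPKM in S.AND COLD against 1.67 in S.AND CONTROL (1.26-fold). OsIAA31 (LOC_Os12g40900) averaged 6.40 RPKM in ERY COLD against 3.18 in ERY CONTROL (2.02-fold), and 1.61 RPKM in S.AND COLD against 1.37 in S.AND CONTROL (1.18-fold). In ERY 2 of 3 pistil markers, OsMADS13 and OsMADS21, were at least 2-fold higher in COLD, beside 8.18% of all genes. OsMADS21 reached 1 RPKM in ERY COLD alone (1.89 RPKM against 0.655 in ERY CONTROL) and so had to stand higher there. DL averaged 14.1 RPKM in ERY COLD against 12.4 in ERY CONTROL. Both pistil markers compared in S.AND, DL and OsMADS13, were at least 2-fold lower in COLD, beside 9.21% of all genes. The part of such tissue in these values was not tested. With 1 RPKM added to each mean the log2 ratios in ERY were 0.62 for OsIAA4 and 0.83 for OsIAA31, below 2-fold.

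Past 2-fold in S.AND but not in ERY were 2 of the 23 genes, OsIAA1 and OsIAA14, against 1.55% of all genes, and OsIAA20 passed 2-fold in S.AND without being compared in ERY. OsIAA1 (LOC_Os01g08320), whose overexpression lowers auxin responses in rice, averaged 84.0 RPKM in ERY COLD against 48.9 in ERY CONTROL (1.72-fold), and 82.3 RPKM in S.AND COLD against 36.8 in S.AND CONTROL (2.24-fold). OsIAA14 averaged 401.2 RPKM in ERY COLD against 226.9 in ERY CONTROL (1.77-fold), and 339.4 RPKM in S.AND COLD against 163.7 in S.AND CONTROL (2.07-fold). In both genes the means of ERY were above those of S.AND at each temperature, and relatively more so in CONTROL. OsIAA20 (LOC_Os06g07040) averaged 0.867 RPKM in ERY COLD against 0.334 in ERY CONTROL, too low to be compared, and 1.07 RPKM in S.AND COLD against 0.316 in S.AND CONTROL (3.38-fold). With 1 RPKM added to each mean its log2 ratio in S.AND was 0.65, below 2-fold. The difference between the cultivars' ratios was not tested for any of the genes in these groups, and 2-fold in 1 cultivar alone does not show that the responses differ.

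A further set was higher in COLD in both cultivars by less than 2-fold. OsIAA15 (LOC_Os05g08570) averaged 50.9 RPKM in ERY COLD against 41.3 in ERY CONTROL, and 47.9 RPKM in S.AND COLD against 36.1 in S.AND CONTROL. OsIAA16 (LOC_Os05g09480) averaged 26.0 RPKM in ERY COLD against 20.9 in ERY CONTROL, and 3.78 RPKM in S.AND COLD against 2.20 in S.AND CONTROL, so its level followed the cultivar far more than the temperature. At lower levels, OsIAA2 (LOC_Os01g09450) averaged 4.76 RPKM in ERY COLD against 3.06 in ERY CONTROL, and 2.50 RPKM in S.AND COLD against 1.94 in S.AND CONTROL. OsIAA12 (LOC_Os03g43410) averaged 1.72 RPKM in ERY COLD against 1.33 in ERY CONTROL, and 1.38 RPKM in S.AND COLD against 0.850 in S.AND CONTROL. The log2 ratios of these 4 genes lay between 0.30 and 0.64 in ERY and between 0.36 and 0.78 in S.AND.

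Lower means in COLD in both cultivars were found for 7 of the 23 genes compared in both, each by less than 2-fold. OsIAA17, one of the 4 most abundant members, averaged 239.5 RPKM in ERY COLD against 278.2 in ERY CONTROL, and 237.6 RPKM in S.AND COLD against 242.9 in S.AND CONTROL. OsIAA5 (LOC_Os01g48444) averaged 41.7 RPKM in ERY COLD against 45.5 in ERY CONTROL, and 41.9 RPKM in S.AND COLD against 62.4 in S.AND CONTROL. OsIAA18 (LOC_Os05g44810) averaged 18.2 RPKM in ERY COLD against 19.9 in ERY CONTROL, and 22.1 RPKM in S.AND COLD against 35.9 in S.AND CONTROL. In both OsIAA5 and OsIAA18 the lower COLD mean was mainly seen in S.AND, where the log2 ratios were -0.58 and -0.70, beside -0.12 and -0.13 in ERY. OsIAA30 (LOC_Os12g40890) had the same form, with 15.5 RPKM in ERY COLD against 16.5 in ERY CONTROL, and 6.67 RPKM in S.AND COLD against 10.2 in S.AND CONTROL. The remaining genes of this set were expressed at low levels. OsIAA7 (LOC_Os02g13520) averaged 5.92 RPKM in ERY COLD against 7.81 in ERY CONTROL, and 10.8 RPKM in S.AND COLD against 12.5 in S.AND CONTROL. OsIAA8 (LOC_Os02g49160) averaged 1.43 RPKM in ERY COLD against 2.17 in ERY CONTROL, and 1.02 RPKM in S.AND COLD against 1.47 in S.AND CONTROL. OsIAA25 (LOC_Os08g01780) averaged 1.84 RPKM in ERY COLD against 3.04 in ERY CONTROL, and 2.27 RPKM in S.AND COLD against 2.94 in S.AND CONTROL. Its log2 ratio of -0.72 in ERY was the lowest among the members compared in that cultivar.

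For 2 genes the direction differed between the cultivars. OsIAA13 (LOC_Os03g53150), a regulator of lateral root initiation, averaged 5.74 RPKM in ERY COLD against 4.37 in ERY CONTROL, and 6.14 RPKM in S.AND COLD against 9.49 in S.AND CONTROL. Its log2 ratio was 0.39 in ERY and -0.63 in S.AND. OsIAA21, the most abundant member, had log2 ratios of -0.11 in ERY and 0.31 in S.AND. All of these ratios are under 2-fold, and the differences between the cultivars were not tested.

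The COLD ratios of the cultivars, which come from separate samples, can be set side by side for 23 members. Of these, 14 were higher in COLD in both cultivars, 7 were lower in both and 2 had opposite directions, so that 91.3% had the same direction, beside 76.7% of the 22639 genes compared in both cultivars. Across the 23 members Pearson's r of the log2 ratios was 0.89 and Spearman's rho 0.78, beside 0.71 and 0.68 across all genes; genes are not independent replicates. Without OsIAA9 r was 0.79 and rho 0.74 over the remaining 22 members. The ratio was larger in ERY for 12 of the 23 genes (52.2%), beside 51.7% of all genes. The median difference of the log2 ratios, ERY minus S.AND, was 0.02 over the members and 0.01 over all genes. The widest differences in favour of ERY were those of OsIAA9 (1.29), OsIAA13 (1.02), OsIAA6 (0.85) and OsIAA23 (0.83), and the widest in favour of S.AND were those of OsIAA16 (-0.46) and OsIAA21 (-0.42).

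**Figure D3:**
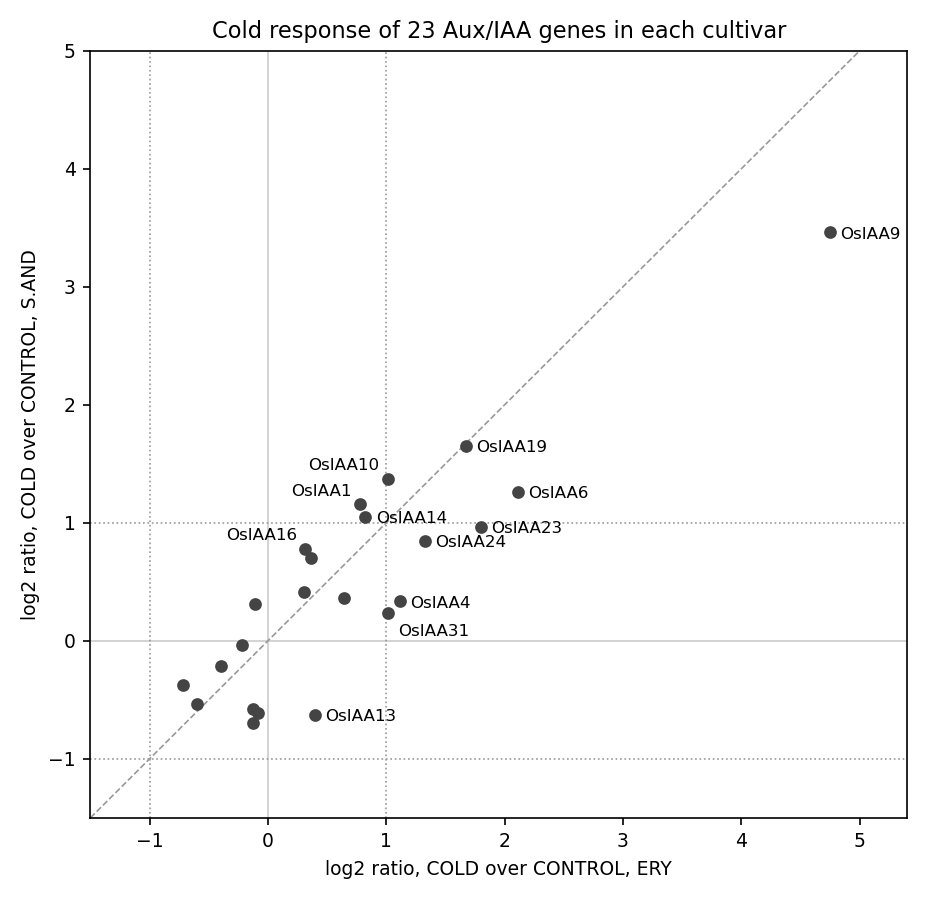
log2 ratio of the group means, COLD over CONTROL, in ERY (horizontal) and in S.AND (vertical), 1 point for each of the 23 Aux/IAA genes compared in both cultivars. Dotted lines mark 2-fold and the dashed line equal ratios; 4 genes lie past 2-fold on both axes (OsIAA9, OsIAA19, OsIAA6 and OsIAA10), and no point lies past 2-fold on the lower side of either axis.

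Few transcripts remained for the other members. OsIAA11 (LOC_Os03g43400), which acts in lateral root development, averaged 0.905 RPKM in ERY COLD against 1.35 in ERY CONTROL, and 0.227 RPKM in S.AND COLD against 0.546 in S.AND CONTROL, so that it was compared in ERY only. In every group 5 genes stayed under 1 RPKM: OsIAA22 (LOC_Os06g24850), OsIAA26 (LOC_Os09g35870), OsIAA27 (LOC_Os11g11410), OsIAA28 (LOC_Os11g11420) and OsIAA29 (LOC_Os11g11430). The highest of their values was 0.496 RPKM, for OsIAA27 in ERY COLD. OsIAA28 was listed at 0 in all 4 groups, and OsIAA29, which is known for a role in grain filling, was listed at 0 in 3 groups and at 0.0183 RPKM in ERY COLD. OsIAA27, OsIAA28 and OsIAA29 have consecutive locus numbers on chromosome 11, and none of them exceeded 0.496 RPKM in these anthers.

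Adjacent members were also set side by side. In the RefSeq annotation of the assembly ASM3414082v1, 27 of the 30 members could be found by name and chromosome, and 0 protein-coding genes separated OsIAA11 from OsIAA12 on chromosome 3 and OsIAA30 from OsIAA31 on chromosome 12. OsIAA31 was 2.02-fold higher in COLD in ERY while the mean of OsIAA30 was 0.94 times that in CONTROL. In S.AND the COLD means were 1.18 and 0.65 times those in CONTROL. The ratio of OsIAA31 in ERY fell under 2-fold with 1 RPKM added (log2 0.83) or after centring on the median gene (0.98). OsIAA12 was 1.29-fold higher in COLD in ERY and 1.62-fold in S.AND. OsIAA11 stood at 0.67 times its CONTROL mean in ERY and was not compared in S.AND. Both genes lay near the 1 RPKM minimum.

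A second comparison set the tolerant cultivar against the susceptible one at the same temperature. In COLD anthers 3 of 24 members were at least 2-fold higher in ERY than in S.AND, against 6.51% of all 24063 genes compared, and 0 were at least 2-fold lower, against 6.6%. In CONTROL anthers 3 of 24 members were at least 2-fold higher in ERY, against 7.6% of all 24581 genes, and 3 were at least 2-fold lower, against 10.8%. The reads of both cultivars were mapped to the same reference genes, so a difference in level and a difference in how well the reads of a cultivar map cannot be told apart.

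OsIAA16 showed the widest difference between the cultivars. It averaged 26.0 RPKM in ERY against 3.78 in S.AND in COLD (6.89-fold), and 20.9 RPKM in ERY against 2.20 in S.AND in CONTROL (9.50-fold). OsIAA31 averaged 6.40 RPKM in ERY against 1.61 in S.AND in COLD (3.97-fold), and 3.18 RPKM in ERY against 1.37 in S.AND in CONTROL (2.32-fold). These were the 2 members past 2-fold at both temperatures. OsIAA30, the neighbour of OsIAA31, was 2.33-fold higher in ERY in COLD and 1.62-fold higher in CONTROL. The summed pistil markers also differed between the cultivars, with 23.3 RPKM in ERY against 4.30 in S.AND in COLD. In CONTROL the sums were 14.9 RPKM in ERY against 9.43 in S.AND, where DL alone was higher in ERY (12.4 RPKM against 5.62). OsMADS13 (1.82 RPKM in ERY CONTROL against 3.04 in S.AND CONTROL) and OsMADS21 (0.655 against 0.775) were lower. Of the lemma and palea markers, OsMADS1 was higher in ERY at both temperatures (log2 ratios of 1.59 in COLD and 1.12 in CONTROL), whereas OsMADS14 (-0.39 and -0.22) and OsMADS15 (-0.81 and -0.80) were lower. All 3 pistil markers were at least 2-fold higher in ERY in COLD, beside 6.51% of all genes. OsMADS21 reached 1 RPKM in ERY COLD alone (1.89 RPKM against 0.413 in S.AND COLD) and so had to stand higher there. OsMADS13 was near the 1 RPKM minimum in S.AND COLD (1.30 RPKM). The part of such tissue in the levels of OsIAA16, OsIAA30 and OsIAA31 was not tested.

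In CONTROL anthers OsIAA9, OsIAA6 and OsIAA13 were at least 2-fold lower in ERY than in S.AND. OsIAA6 averaged 6.73 RPKM in ERY CONTROL against 15.7 in S.AND CONTROL, and OsIAA13 4.37 RPKM against 9.49. OsIAA9 averaged 0.825 RPKM in ERY CONTROL against 1.95 in S.AND CONTROL. It reached 1 RPKM in S.AND CONTROL alone and so had to stand lower in ERY CONTROL. In COLD the log2 ratios of ERY over S.AND for the same genes were -0.37 for OsIAA6, -0.10 for OsIAA13 and 0.04 for OsIAA9. OsIAA11, at 1.35 RPKM in ERY CONTROL against 0.546 in S.AND CONTROL (2.46-fold), was the third member higher in ERY CONTROL and reached 1 RPKM there alone. With 1 RPKM added to each mean the CONTROL log2 ratios were -0.69 for OsIAA9, -0.97 for OsIAA13, 0.60 for OsIAA11 and 0.82 for OsIAA31, all under 2-fold, so that OsIAA6 and OsIAA16 alone stayed past it.

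The gap between the cultivars was narrower in COLD than in CONTROL for 14 of the 23 members compared at both temperatures (60.9%), beside 57.0% of the 23314 genes compared in the same way. The median absolute log2 ratio of the members was 0.28 in COLD and 0.56 in CONTROL, beside 0.27 and 0.30 over all genes. Within 1.5-fold between the cultivars were 17 of the 23 members in COLD (73.9%) and 12 in CONTROL (52.2%), beside 76.5% and 70.7% of all genes. Among the 9 members with a wider gap in COLD were OsIAA23, OsIAA24, OsIAA30 and OsIAA31, whose log2 ratios of ERY over S.AND were 0.92, 0.52, 1.22 and 1.99 in COLD and 0.09, 0.04, 0.69 and 1.21 in CONTROL.

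**Figure D4:**
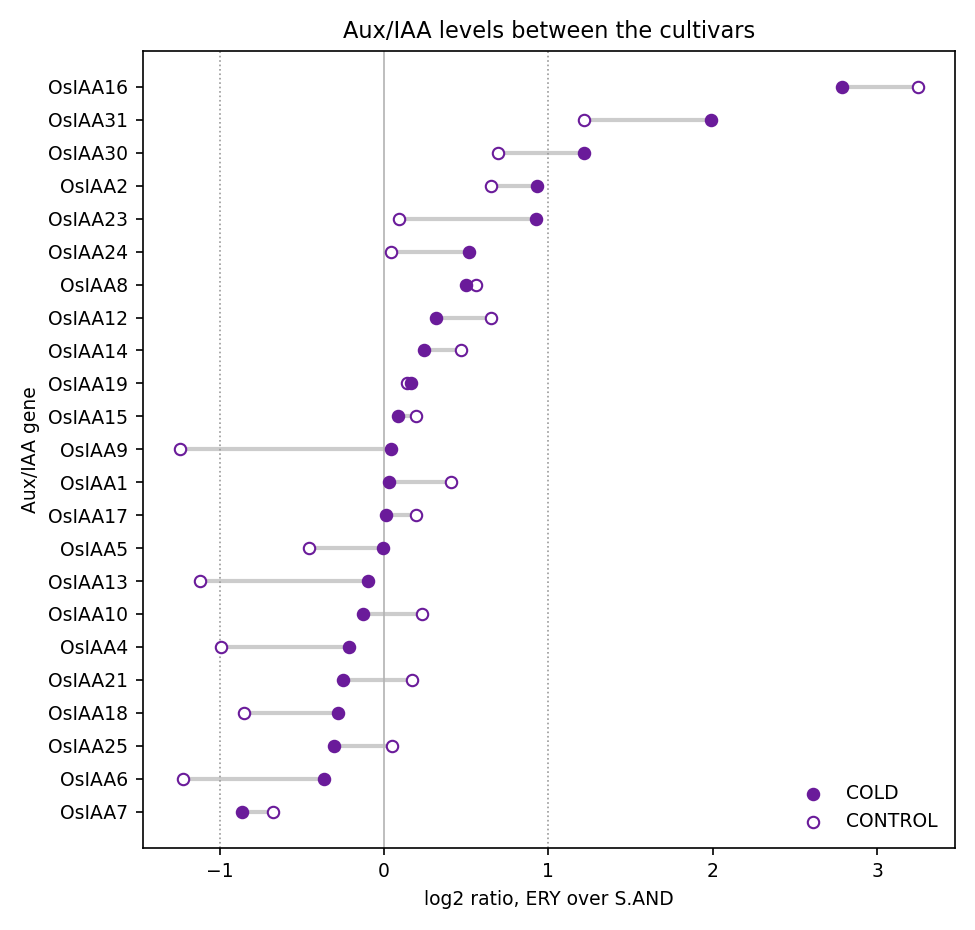
log2 ratio of the group means, ERY over S.AND, for the 23 Aux/IAA genes compared at both temperatures, ordered by the ratio in COLD. Filled circles are COLD, open circles CONTROL, and dotted lines mark 2-fold; OsIAA16 and OsIAA31 lie past 2-fold at both temperatures, and OsIAA9, OsIAA6 and OsIAA13 only in CONTROL and on the S.AND side.

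The partners of the Aux/IAA proteins were examined as lists of loci drawn up for this purpose. Of 25 ARF genes, which encode the transcription factors that Aux/IAA proteins hold in check, 23 could be compared in ERY. Of these, 2 were at least 2-fold higher in COLD and 0 lower, beside 8.18% and 6.65% of all genes. In S.AND 24 were compared, with 1 higher and 0 lower, beside 5.42% and 9.21% of all genes. The counts higher in COLD thus lay near the shares over all genes. A ratio above 1 was found for 18 of the 23 in ERY and 23 of the 24 in S.AND, beside 52.8% and 50.1% of all genes. Their median log2 ratios, 0.46 in ERY and 0.39 in S.AND, lay near those of the Aux/IAA genes, but their range was narrower. OsARF6 (LOC_Os02g06910) averaged 37.5 RPKM in ERY COLD against 15.0 in ERY CONTROL, and 27.6 RPKM in S.AND COLD against 11.2 in S.AND CONTROL. OsARF7 (LOC_Os02g35140), which had the highest single group mean of the list although OsARF23 or OsARF1 stood above it in the other 3 groups, averaged 262.1 RPKM in ERY COLD against 176.8 in ERY CONTROL, and 341.4 RPKM in S.AND COLD against 211.3 in S.AND CONTROL. Summed RPKM of the ARF list was 1937.0 in ERY COLD and 1499.8 in ERY CONTROL, against 2288 in S.AND COLD and 1666 in S.AND CONTROL, so that the Aux/IAA sums stayed under the ARF sums in all 4 groups.

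Of the 5 receptor genes of the TIR1/AFB list, 2 were at least 2-fold higher in COLD in ERY and 1 in S.AND, with 0 lower in either. Over all genes 8.18% in ERY and 5.42% in S.AND were higher, and 6.65% and 9.21% lower. OsAFB2 (LOC_Os04g32460), the most abundant receptor gene, averaged 208.8 RPKM in ERY COLD against 94.0 in ERY CONTROL, and 214.3 RPKM in S.AND COLD against 107.5 in S.AND CONTROL, a log2 ratio of 1.15 in ERY and one just under 1 in S.AND (1.99-fold). The F-box gene LOC_Os03g08850 averaged 23.6 RPKM in ERY COLD against 6.91 in ERY CONTROL, and 27.8 RPKM in S.AND COLD against 9.35 in S.AND CONTROL. Transcripts of repressors and of receptors that direct their degradation were thus both among those higher in COLD, and protein levels were not measured.

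GH3 genes, many of which encode enzymes that conjugate auxin or jasmonate to amino acids, include early auxin targets, like Aux/IAA genes. In ERY 3 of 9 members were at least 2-fold higher in COLD and 0 lower, beside 8.18% and 6.65% of all genes. In S.AND 4 of 10 were higher and 1 lower, beside 5.42% and 9.21% of all genes. The 1 lower reached 1 RPKM in S.AND CONTROL alone. A ratio above 1 was found for 5 of the 9 in ERY, beside 52.8% of all genes. In S.AND this held for 7 of the 10, beside 50.1%. The genes named next were chosen for passing 2-fold in a cultivar and do not stand for the whole list. OsGH3-8 (LOC_Os07g40290), an auxin-conjugating enzyme, averaged 388.1 RPKM in ERY COLD against 71.8 in ERY CONTROL, and 183.8 RPKM in S.AND COLD against 63.1 in S.AND CONTROL. OsGH3-1 (LOC_Os01g57610) averaged 11.5 RPKM in ERY COLD against 2.23 in ERY CONTROL, and 21.6 RPKM in S.AND COLD against 4.67 in S.AND CONTROL. OsGH3-2 (LOC_Os01g55940) averaged 29.2 RPKM in ERY COLD against 18.4 in ERY CONTROL, and 11.6 RPKM in S.AND COLD against 2.57 in S.AND CONTROL. OsGH3-3 (LOC_Os01g12160) averaged 77.4 RPKM in ERY COLD against 29.6 in ERY CONTROL, and 65.2 RPKM in S.AND COLD against 24.2 in S.AND CONTROL. The log2 ratios of OsGH3-2 were 0.66 in ERY and 2.17 in S.AND, the widest such difference among the genes named from this list.

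Fewer genes for auxin supply were expressed. Of the 9 synthesis genes 6 were compared in ERY, with 0 higher and 1 lower in COLD by at least 2-fold. In S.AND 7 were compared, with 0 higher and 2 lower, OsYUCCA5 and OsYUCCA7. OsYUCCA5 reached 1 RPKM in S.AND CONTROL alone (2.42 RPKM against 0.827 in S.AND COLD) and so had to stand lower in COLD. OsYUCCA7 averaged 1.17 RPKM in S.AND COLD against 2.38 in S.AND CONTROL, near the 1 RPKM minimum. Over all genes, beside this list and the transport list, 8.18% were higher and 6.65% lower in ERY. In S.AND these shares were 5.42% and 9.21%. FIB (LOC_Os01g07500), a tryptophan aminotransferase and the most abundant synthesis gene, averaged 28.7 RPKM in ERY COLD against 58.7 in ERY CONTROL, and 10.8 RPKM in S.AND COLD against 16.6 in S.AND CONTROL. It was the gene past 2-fold lower in ERY, and was 1.54-fold lower in S.AND. Of the 13 transport genes 7 were compared in each cultivar, with 2 higher and 1 lower in ERY and 1 higher and 1 lower in S.AND. The PIN-type carrier gene OsPIN5b (LOC_Os08g41720) averaged 29.4 RPKM in ERY COLD against 6.33 in ERY CONTROL, and 14.9 RPKM in S.AND COLD against 7.30 in S.AND CONTROL. OsPIN10a (LOC_Os01g45550) stood in the opposite direction, with 5.65 RPKM in ERY COLD against 11.5 in ERY CONTROL, and 2.93 RPKM in S.AND COLD against 9.02 in S.AND CONTROL. OsAUX1 (LOC_Os01g63770), an auxin influx carrier, was the most abundant transport gene, with 91.6 RPKM in ERY COLD against 48.6 in ERY CONTROL, and 77.5 RPKM in S.AND COLD against 55.6 in S.AND CONTROL.

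**Figure D5:**
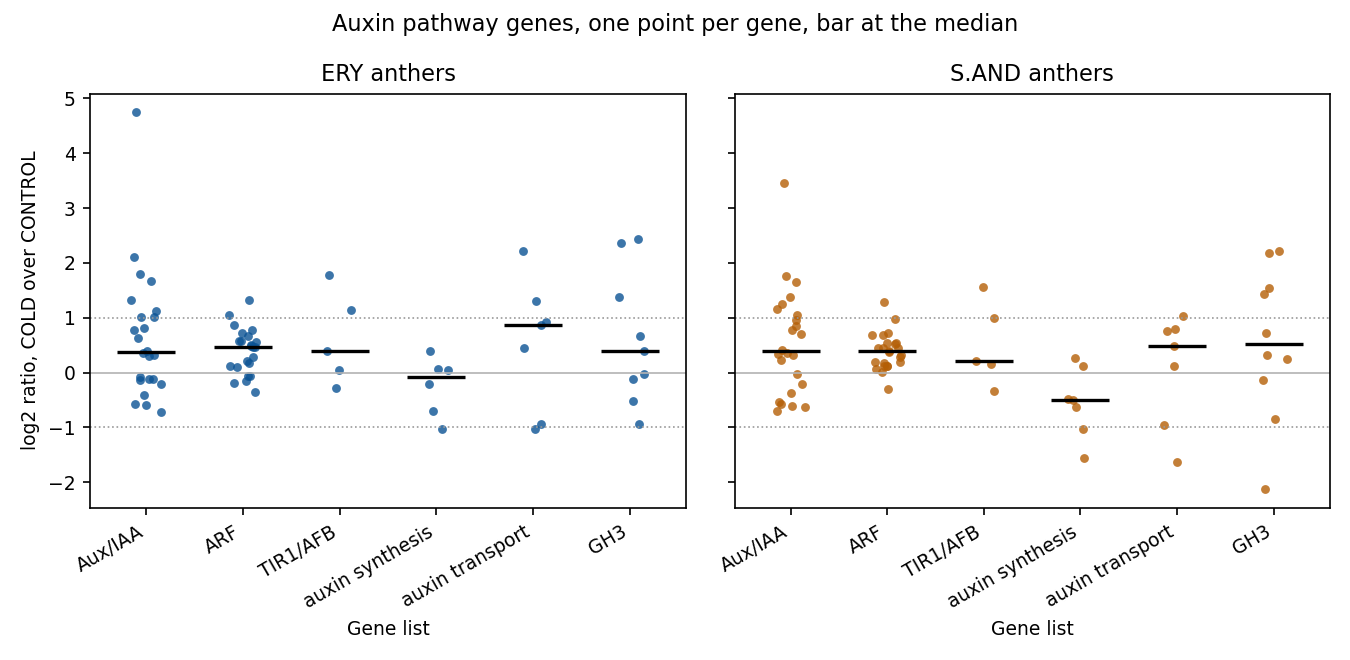
log2 ratio of the group means, COLD over CONTROL, for the Aux/IAA genes and 5 other lists of auxin genes in ERY (left) and S.AND (right), 1 point per gene compared, with sideways scatter added for visibility only. Black bars are list medians and dotted lines mark 2-fold; the Aux/IAA medians are 0.38 in ERY and 0.39 in S.AND, with OsIAA9 as the highest point in each panel, and the synthesis list has the lowest median in both.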

How the data were processed

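The authors sequenced poly(A) RNA as single reads of 50 bases, mapped them in CLC Genomics Workbench (version 4.7.1) to MSU 7.0 gene models of rice, and deposited RPKM values scaled by total reads, of which the table used here gives 1 mean per group for 55985 genes. The authors' fold change and false discovery rate columns for cold against control in each cultivar were not used. Ratios of the deposited RPKM means were computed without a pseudocount wherever either mean reached 1 RPKM and both were above 0 (Python 3.11.15, pandas 2.3.3, NumPy 2.4.6). The code for ratios and counts was tested on a copy of the deposited ERY CONTROL means with known folds put in. With 1 mean per group no standard deviation, test or interval could be had, depth per sample is unknown, and 1 unusual sample could set a mean. Reads of 50 bases shared by similar family members may have been divided between them.

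All 30 listed Aux/IAA genes were reported. From the other auxin lists the text names genes past 2-fold in either cultivar with at least 10 RPKM in a group, at most 4 per list by size of the ratio, and the gene with the highest group mean. OsYUCCA5 and OsYUCCA7, under 10 RPKM, are named outside this rule to show which genes a count rests on. Members and lists were chosen with earlier results of these data known. Alternatives tried were a fold of 1.5 or 3, 1 RPKM added to each mean, no filter, a minimum of 10 RPKM, and ratios centred on the median gene. Identifiers of the table matched none of the RefSeq annotation, so family names were used to find neighbours. Sequences of the genes were not analysed here.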

Additional observations from a re-analysis of the deposited data

How the results depend on the processing

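No paired analysis was possible because the table holds 1 mean per group, and for the same reason no replicate could be left out. No member past 2-fold could change direction with 1 RPKM added, because the larger mean stays the larger. Centring on the median gene shifted the log2 ratios too little to reverse any past 2-fold. The other alternatives leave a ratio as it is, so no conclusion is drawn from the absence of reversals. At a fold of 1.5 instead of 2, the members lower in COLD numbered 2 in ERY and 3 in S.AND (0 in each at 2-fold), where 14.5% and 18.7% of all genes were lower, and those higher in COLD in S.AND 11 (7 at 2-fold), where 12.8% of all genes were. Those higher and lower in ERY than in S.AND numbered 5 and 1 in COLD (3 and 0 at 2-fold), beside 13.9% and 10.8% of all genes, and 6 and 6 in CONTROL (3 and 3 at 2-fold), beside 14.3% and 17.3%. At a fold of 3, 4 members were higher in COLD in ERY (3.59% of all genes) and 3 in S.AND (2.02%), and between the cultivars in CONTROL 1 was higher in ERY and 0 lower (4.14% and 7.07%). With 1 RPKM added, 1 member was higher and 1 lower in ERY CONTROL than in S.AND CONTROL (5.25% and 8.02% of all genes), and the median log2 ratio of the members in ERY was 0.32 (0.03 over all genes). Without a filter, 2 members were lower in COLD in S.AND (13.9% of all genes), 6 were higher in ERY COLD than in S.AND COLD (10.6%), and the median log2 ratio in ERY was 0.50 (0.02 over all genes). With a minimum of 10 RPKM, 1 member was higher and 1 lower in ERY CONTROL than in S.AND CONTROL (4.62% and 5.97% of all genes), and the members had a median log2 ratio of 0.78 in ERY (0.04 over all genes) and of 0.85 in S.AND (0.07 over all genes). Another fold or filter counts other ratios or members by its construction. Adding 1 RPKM to both means draws each ratio towards 1, also by construction and more so at low means. Among the 96 single ratios, 7 dropped under 2-fold with 1 RPKM added and 2, both in ERY, after centring (OsIAA10 and OsIAA31). Most of the 96 were not past 2-fold and so could not drop. Past 2-fold for COLD over CONTROL were 8 ratios in ERY and 7 in S.AND. Between the cultivars these were 3 higher in ERY in COLD, and 3 higher and 3 lower in CONTROL.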
